A study of Mus musculus with 6 samples.

Results

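Complexes III, IV and V are the last 3 enzyme assemblies of oxidative phosphorylation in the inner mitochondrial membrane, and the genes described here are the nuclear genes of these complexes in mouse kidney. Members were the rows of the count table whose gene symbol begins with Uqcr, Cox4 to Cox8, Cox10 to Cox19 or Atp5, together with Cyc1, leaving out pseudogene names. The rule found 53 of 25031 rows, of which 9 belong to complex III, 26 to complex IV and 18 to complex V. Of these, 49 passed the filter on low counts, and 35 of those are structural subunits in their common form.

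RNA was sequenced in 6 libraries from kidneys of wild-type male C57BL/6 mice, 7 to 8 weeks old, after 23 minutes of ischemia in both kidneys, with body temperature kept at 37 °C. Clamping and reopening both renal arteries is a standard way to cause acute kidney injury, and it damages the tubule most. The 3 vehicle libraries came from injured mice given saline, and the 3 treated libraries from injured mice given (+)CePPy, positively charged cerium-doped polypyrrole nanoparticles, at 5 mg per kg into a vein directly after the injury. Both groups were therefore injured, and no uninjured kidney is among the 6 samples. The labels used here give no time from injury to collection. Nothing in them states that each library is a separate animal, so a p-value measures only how these libraries vary, which may be technical.

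Complex III passes electrons from ubiquinol to cytochrome c, and complex IV, cytochrome c oxidase, passes them on to oxygen; both pump protons. Complex V, the ATP synthase, lets the protons flow back through a ring of c subunits and makes ATP in its F1 head. Cytochrome b of complex III, the core of complex IV and part of the membrane sector of complex V are encoded in mitochondrial DNA. All other subunits are made from nuclear genes and imported. The proximal tubule and the thick ascending limb rely on this pathway for salt and solute transport and are rich in mitochondria.

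Nuclear respiratory genes are known to be read under shared transcription factors, among them NRF1, the ETS factor GABPA, the ERR receptors and YY1. Promoter sequences, from RefSeq on GRCm38.p6, were matched for 39 members, 27 of them subunits; Cyc1, Uqcrb, Uqcrc2, Uqcrq, Cox4i1, Cox6c, Cox4i2, Cox6a2, Cox8c, Cox17, Cox18, Atp5a1 and Atp5mpl were not matched. In the 250 bases before the start, searched on both strands, the NRF1 letters (GCGCA, any base, GCGC) occurred in 4 of the 27 subunit promoters (14.8%) and in 3.86% of all 27025 promoters. The GABPA letters CCGGAAG occurred in 7 of 27 (25.9%) and in 7.05% of all promoters. The ERR letters AAGGTCA occurred in 2 of 27 (7.41%) and in 4.05%, and the YY1 letters AAGATGGC in 0 of 27 and in 1.59%. At least 1 of the 4 was found in 10 of 27 (37.0%) and in 15.4% of all promoters. The promoters with the NRF1 letters were those of Cox6a1, Atp5g2, Atp5h and Atp5k. The NRF1 letters nearly read the same on both strands, so that a place found on both was counted once per promoter. These are letter matches, not measured binding.

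One promoter per complex is printed to show such letters in place, in capitals, read 5′ to 3′ on the gene's own strand and stopping where the annotated gene begins. The Uqcrh stretch (chr4:116075072-116075320, minus strand) holds the GABPA letters on the opposite strand, the Cox6a1 stretch (chr5:115348982-115349208, minus strand) holds the NRF1 letters at 2 places, and the Atp5h stretch (chr11:115419963-115420169, minus strand) holds them at 1 place.
Uqcrh: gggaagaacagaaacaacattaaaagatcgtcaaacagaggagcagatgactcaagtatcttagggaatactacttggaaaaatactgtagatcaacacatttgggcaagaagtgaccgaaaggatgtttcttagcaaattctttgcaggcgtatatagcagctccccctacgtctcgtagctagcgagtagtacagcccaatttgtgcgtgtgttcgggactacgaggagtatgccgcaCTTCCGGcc
Cox6a1: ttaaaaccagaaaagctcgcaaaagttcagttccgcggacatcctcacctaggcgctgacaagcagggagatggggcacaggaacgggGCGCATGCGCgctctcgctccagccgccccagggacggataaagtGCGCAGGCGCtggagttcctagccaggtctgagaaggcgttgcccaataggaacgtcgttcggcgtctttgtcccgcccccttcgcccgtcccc
Atp5h: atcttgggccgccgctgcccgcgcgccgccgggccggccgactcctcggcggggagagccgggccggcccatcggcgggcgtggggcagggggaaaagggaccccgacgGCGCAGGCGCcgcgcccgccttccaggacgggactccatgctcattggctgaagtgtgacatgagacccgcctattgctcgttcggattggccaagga

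No member passed the test between (+)CePPy and vehicle kidneys: 0 of 49 had an adjusted p under 0.05 in edgeR's quasi-likelihood test, against 1 gene (0.00649%) of the 15416 tested. No member had an unadjusted p under 0.05, where 9.65% of all genes did so with higher and 9.37% with lower values in (+)CePPy. By DESeq2 0 members passed as well, where 6.6% of the genes it adjusted did. The groups did not overlap for 1 member, Uqcrc2, which was higher in all 3 treated libraries; over all genes this was so for 12.3% in the higher direction and 14% in the lower one. The fitted log2 fold change was positive for 36 of 49 members and for 29 of the 35 subunits, beside 50.5% of all genes. Its median was 0.07 over the members, 0.10 over the subunits and 0.00 over all genes tested. For the subunits, the 95% intervals of the fold together ran from 0.758 (Uqcr10) to 1.71 (Atp5k). Single intervals were narrower, for example 0.932 to 1.27 for Uqcrc1. With 3 libraries per group, differences within a subunit's own interval were not resolved.

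The subunits moved together among the 3 treated libraries and varied less among the 3 vehicle libraries. All 35 were highest in the library (+)CePPy 1, whereas 30.6% of the 3936 tested genes averaging 50 CPM or more, a read count scaled to a common library size, were. In (+)CePPy 2, 29 of 35 subunits (82.9%) were at their lowest, beside 14.4% of those 3936 genes. Relative to the vehicle mean, the median subunit lay at a log2 of 0.35 in (+)CePPy 1 (0.20 to 0.68), at -0.15 in (+)CePPy 2 (-0.34 to 0.09) and at -0.01 in (+)CePPy 3 (-0.16 to 0.18). The coefficient of variation among the 3 vehicle libraries had a median of 4.0% over the subunits, against 17.6% among the 3 treated ones, and it was larger in the treated group for 35 of 35 subunits. Among the 3936 genes it was larger in the treated group for 73.8%, with medians of 5.22% and 8.92%.

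**Figure D1:**
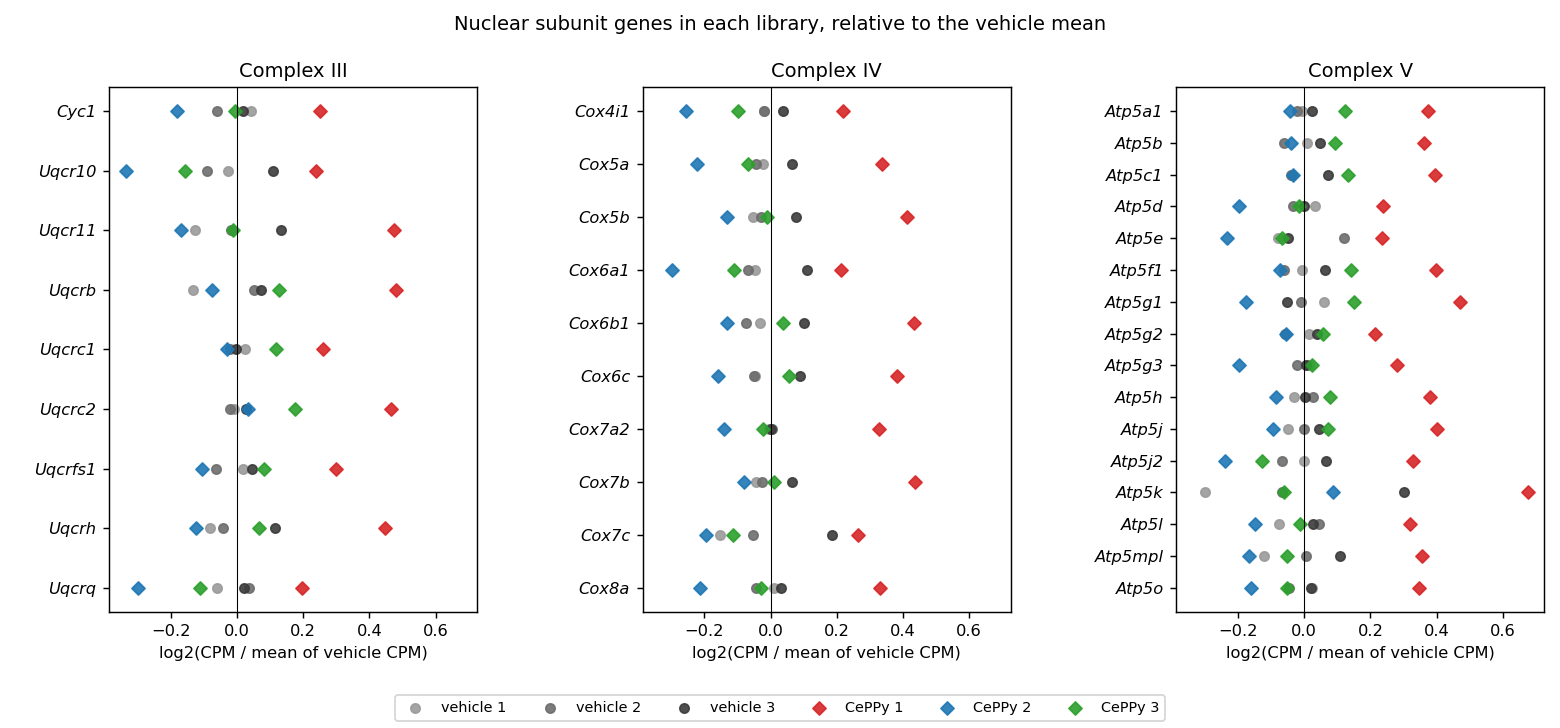
Level of each tested nuclear subunit gene in each of the 6 libraries, as log2 of its CPM over the vehicle mean (horizontal axis), in panels for complexes III, IV and V; circles are vehicle and diamonds (+)CePPy libraries. The (+)CePPy 1 diamond lies furthest right for all 35 genes, and the (+)CePPy 2 diamond furthest left for 29.

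Levels below are CPM values scaled by the TMM method, given in the order vehicle 1, 2, 3 and (+)CePPy 1, 2, 3. Fold changes are on the log2 scale, (+)CePPy over vehicle, with 95% intervals, and adjusted p is edgeR's over all genes tested.

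In complex III, 7 of 9 subunits had a positive and 2 a negative fitted difference, with a median log2 fold change of 0.12, and none passed the test. The 2 large core proteins face the matrix and hold the complex together. Uqcrc2 (chromosome 7, 120635176 to 120659524, plus strand), core protein 2, measured 347, 344 and 355 CPM in vehicle and 481, 357 and 394 CPM in (+)CePPy kidneys. Its 3 treated values lay above its 3 vehicle values, although the lowest of them exceeded the highest vehicle value by less than the vehicle spread. The fitted difference of Uqcrc2 was 0.24 (-0.04 to 0.51, adjusted p = 0.319). Uqcrc1 (chromosome 9, 108936633 to 108949623, plus strand), core protein 1, measured 360, 348 and 353 CPM against 424, 346 and 384 CPM, a difference of 0.12 (-0.10 to 0.34, adjusted p = 0.525). For Uqcrc1, (+)CePPy 2 lay just below the vehicle values and the other two treated libraries above them.

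The redox centres of complex III that nuclear genes encode are the Rieske iron-sulfur protein and cytochrome c1. Uqcrfs1 (chromosome 13, 30540308 to 30545362, minus strand), the Rieske protein, measured 292, 276 and 297 CPM against 355, 268 and 305 CPM, a difference of 0.10 (-0.16 to 0.36). Cyc1 (chromosome 15, 76343523 to 76346260, plus strand), cytochrome c1, measured 289, 270 and 285 CPM against 335, 248 and 280 CPM, a difference of 0.03 (-0.24 to 0.30, adjusted p = 0.906). For both genes (+)CePPy 1 was the highest and (+)CePPy 2 the lowest of the 6 libraries, and (+)CePPy 3 lay near the vehicle values.

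The small subunits of complex III had both the higher and the lower fitted values. Uqcrb, which lies next to a ubiquinone site, measured 96.7, 110 and 112 CPM against 148, 101 and 116 CPM, a difference of 0.20 (-0.13 to 0.52, adjusted p = 0.483). Uqcrq measured 118, 127 and 125 CPM against 141, 101 and 114 CPM, a difference of -0.06 (-0.34 to 0.23). Uqcr10 measured 121, 115 and 133 CPM against 145, 97.4 and 110 CPM, likewise a difference of -0.06 (-0.40 to 0.27). In Uqcrq and Uqcr10, 2 of 3 treated libraries lay below all vehicle libraries and the third above them. The hinge protein gene Uqcrh, whose promoter is printed above, measured 131, 135 and 150 CPM against 189, 127 and 145 CPM (0.15), and Uqcr11 47.7, 51.5 and 57.1 CPM against 72.4, 46.4 and 51.7 CPM (0.13).

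Complex IV had 10 common subunits tested, 7 with positive and 3 with negative differences, a median of 0.06 and a lowest adjusted p of 0.603. Cox4i1 (chromosome 8, 120668222 to 120674207, plus strand), subunit 4 and the regulatory subunit that binds adenine nucleotides, measured 497.5, 498 and 519 CPM against 587, 423 and 472 CPM, a difference of -0.03 (-0.32 to 0.26). Cox5a (chromosome 9, 57521274 to 57532426, plus strand) measured 200, 197 and 212 CPM against 256, 174 and 194 CPM, a difference of 0.04 (-0.29 to 0.36). Cox6a1, the common form of subunit 6A whose promoter is printed above, measured 289, 285 and 322 CPM against 347, 243 and 277 CPM, a difference of -0.05 (-0.36 to 0.26). In each of these 3 genes the treated libraries lay on both sides of the vehicle group, (+)CePPy 1 above and the other two below it.

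The subunits of complex IV with the lowest p were Cox7b and Cox6b1. Cox7b, on the X chromosome (106015700 to 106022450, plus strand), measured 139, 141 and 150 CPM against 194, 135 and 144 CPM, a difference of 0.14 (-0.17 to 0.45, adjusted p = 0.603). Cox6b1, which faces the intermembrane space where cytochrome c docks, measured 186, 180 and 204 CPM against 256, 173 and 195 CPM, a difference of 0.13 (-0.20 to 0.47). The groups overlapped in both. Cox7a2 measured 140, 142 and 141 CPM against 177, 128 and 139 CPM (0.07), and Cox8a 278, 268 and 282 CPM against 346, 238 and 270 CPM (0.05). The vehicle values of Cox7a2 were the most even of all subunits, and its treated values spread to both sides of them. The remaining subunits had differences of 0.11 (Cox5b), 0.11 (Cox6c) and -0.0012 (Cox7c).

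Several subunits of complex IV have second isoforms made in other tissues, and these were low or at 0. Of 7 isoform genes 4 were tested. Cox4i2, a form known from lung and induced by low oxygen, measured 0.418, 0.736 and 0.683 CPM against 0.647, 0.718 and 0.600 CPM, a difference of 0.10 (-0.83 to 1.03). Cox6a2, the striated muscle form, measured 0.473, 0.618 and 0.743 CPM against 0.619, 0.319 and 0.567 CPM, a difference of -0.29 (-1.32 to 0.74). Cox7a1, the muscle and heart form, measured 0.947, 1.38 and 2.17 CPM against 3.35, 0.771 and 1.63 CPM, a difference of 0.36 (-0.91 to 1.62). All 3 overlapped between groups, with intervals wider than those of any subunit. Cox6b2, the testis form, measured 2.98, 2.65 and 2.61 CPM against 3.40, 2.63 and 3.67 CPM (0.23, adjusted p = 0.593). Cox8b, another muscle form, was not tested: it had 0 counts in each vehicle library and 2, 6 and 0 counts in the treated ones. Cox7b2 and Cox8c had 0 counts in all 6 libraries, where 0 allows up to 3 counts, or 0.0798 to 0.100 CPM. The muscle marker Myh4 was at 0 in all 6 libraries as well, and the striated muscle list of 5 genes summed to 0.239 to 0.867 CPM per library.

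Per kilobase of exon, the second isoforms took small shares of their families. Of the subunit 4 pair, Cox4i2 took 0.117% ± 0.032 (SD, n = 3) in vehicle and 0.132% ± 0.030 in (+)CePPy kidneys. Cox6a2 took 0.171% ± 0.030 and 0.144% ± 0.031 of its pair, and Cox6b2 1.2% ± 0.13 and 1.30% ± 0.23 of its own. These shares overlapped between groups, and in every library nearly all RNA of these families came from the common form. Among the 3 subunit 7A relatives, Cox7a2 took 65.6% ± 0.14 in vehicle and 67.4% ± 1.55 in (+)CePPy kidneys, without overlap. The lowest treated share of Cox7a2 was 65.69% and the highest vehicle share 65.68%, and the groups overlapped when the shortest principal transcript was used as the length.

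Cox7a2l, the relative that is known to join complexes III and IV into supercomplexes, is counted among the assembly genes. Cox7a2l (chromosome 17, 83501918 to 83517330, minus strand) measured 127, 126 and 124 CPM against 133, 104 and 122 CPM, a difference of -0.07 (-0.30 to 0.16). The assembly genes of complex IV that the rule found were 9, of which 3 had positive and 6 negative differences, with a median of -0.06. Their medians against the vehicle mean were 0.08, -0.12 and -0.06 in (+)CePPy 1, 2 and 3, beside 0.33, -0.18 and -0.03 for the complex IV subunits.

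Heme A and copper have to be built into subunits 1 and 2 before complex IV can work. Cox10, the first enzyme of heme A synthesis, measured 21.4, 22.1 and 23.6 CPM against 20.3, 20.8 and 22.8 CPM, a difference of -0.07 (-0.29 to 0.14). Cox15, the second enzyme, measured 74.2, 73.3 and 75.9 CPM against 86.8, 74.6 and 71.5 CPM, a difference of 0.06 (-0.15 to 0.27). Cox17, the copper chaperone, measured 24.4, 25.1 and 28.3 CPM against 31.6, 24.6 and 25.4 CPM, a difference of 0.07 (-0.22 to 0.35). All 3 overlapped between groups. Cox19, a copper-related factor singled out here because it had the lowest adjusted p of all members, measured 34.3, 29.5 and 31.2 CPM against 29.8, 26.5 and 25.7 CPM, a difference of -0.21 (-0.44 to 0.01, adjusted p = 0.287). For Cox19 the treated libraries were the lower ones, with 1 overlapping pair. Cox11, Cox14, Cox16 and Cox18 differed by between -0.06 and 0.12.

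In complex V, 15 of the 16 subunits tested had a positive difference and 1 a negative one, with a median of 0.11, and the lowest adjusted p was 0.454. By part of the enzyme, the median was 0.15 over the 5 genes of the F1 head and central stalk, 0.14 over 4 of the peripheral stalk, 0.08 over the 3 of the c ring and 0.07 over 4 other membrane subunits. A second entry under the symbol Atp5o, whose annotated span overlaps neighbouring genes such as Donson and Cryzl1, had 0 counts in every library. Against the vehicle mean, the median complex V subunit stood at 0.36 in (+)CePPy 1, at -0.12 in (+)CePPy 2 and at 0.04 in (+)CePPy 3.

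Atp5b and Atp5a1 encode the beta and alpha subunits that alternate in the F1 head, and beta carries the catalytic sites. Atp5b (chromosome 10, 128083273 to 128090391, plus strand) measured 2182, 2079 and 2239 CPM against 2786, 2107 and 2309 CPM, a difference of 0.15 (-0.15 to 0.45, adjusted p = 0.563). Atp5a1 measured 1548, 1532 and 1581 CPM against 2015, 1509 and 1693 CPM, a difference of 0.16 (-0.13 to 0.45). In both genes (+)CePPy 1 was highest and (+)CePPy 3 next, and (+)CePPy 2 lay within or just below the vehicle values. The ratio of Atp5a1 to Atp5b counts was 0.718 ± 0.017 (SD, n = 3) in vehicle and 0.724 ± 0.008 in (+)CePPy kidneys, with values of 0.706 to 0.737 over all 6 libraries. The pair therefore kept nearly the same proportion while the level of each gene differed between treated libraries.

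The central stalk turns inside the head and the peripheral stalk holds the head still. Atp5c1 (chromosome 2, 10056016 to 10080510, minus strand), the gamma subunit of the rotor, measured 359, 359 and 387 CPM against 485, 360 and 404 CPM, a difference of 0.18 (-0.10 to 0.45, adjusted p = 0.454). Atp5f1 (chromosome 3, 105942698 to 105960099, minus strand), subunit b of the peripheral stalk, measured 380, 367 and 399 CPM against 504, 363 and 421 CPM, a difference of 0.17 (-0.12 to 0.46). Both overlapped between groups through (+)CePPy 2 alone. Atp5e, the epsilon subunit and the 1 complex V subunit with a negative estimate, measured 78.1, 89.7 and 79.7 CPM against 97.1, 70.2 and 78.8 CPM, a difference of -0.01 (-0.30 to 0.28). Atp5d, the delta subunit, differed by 0.02, and the peripheral stalk genes Atp5h, Atp5j and Atp5o by 0.14, 0.14 and 0.06.

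The c subunit of the rotor ring is made from 3 nuclear genes whose mature protein is known to be the same and whose import sequences differ. Atp5g3 (chromosome 2, 73908447 to 73911326, minus strand) measured 542, 529 and 540 CPM against 653, 469 and 545 CPM, a difference of 0.05 (-0.24 to 0.34). Atp5g1 (chromosome 11, 96068852 to 96075670, minus strand) measured 145, 138 and 134 CPM against 193, 123 and 155 CPM, a difference of 0.17 (-0.18 to 0.52). Atp5g2 (chromosome 15, 102662864 to 102672352, minus strand) measured 136, 129 and 138 CPM against 156, 129 and 140 CPM, a difference of 0.08 (-0.13 to 0.28). Atp5g2 was the subunit gene with one of the smallest rises in (+)CePPy 1, and its values in the other two treated libraries lay close to the vehicle range. The coding parts of the 3 genes are alike, and how reads that map to several places were counted is not given, so the split between them is uncertain.

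Atp5g3 supplied most c subunit reads. By counts it took 66.3% ± 0.33 (SD, n = 3) in vehicle and 65.0% ± 0.12 in (+)CePPy kidneys, without overlap, while the shares of Atp5g1 (17.2% and 18.3%) and Atp5g2 (16.6% and 16.7%) overlapped. Per kilobase of all annotated exons, the Atp5g3 share was 77.8% ± 0.32 and 77.2% ± 0.95, with overlap. The length matters because the exons annotated for Atp5g1 cover 4912 bases, against 596 in its shortest principal transcript. With that shorter length Atp5g3 took 58.3% ± 0.32 and 57.1% ± 0.35, without overlap.

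The membrane subunits e, f and g and the small proteolipid hold dimers of the enzyme together at the cristae. Atp5k, subunit e, had the largest estimate of the subunits, with 22.6, 26.5 and 34.2 CPM against 44.3, 29.5 and 26.6 CPM, a difference of 0.27 (-0.23 to 0.78). It also had the widest spread among vehicle libraries, 21.4%, and its groups overlapped. Atp5j2, Atp5l and Atp5mpl differed by 0.01, 0.07 and 0.06. Atp5s, coupling factor B, measured 8.83, 9.77 and 9.74 CPM against 12.6, 8.96 and 9.97 CPM (0.16).

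**Figure D2:**
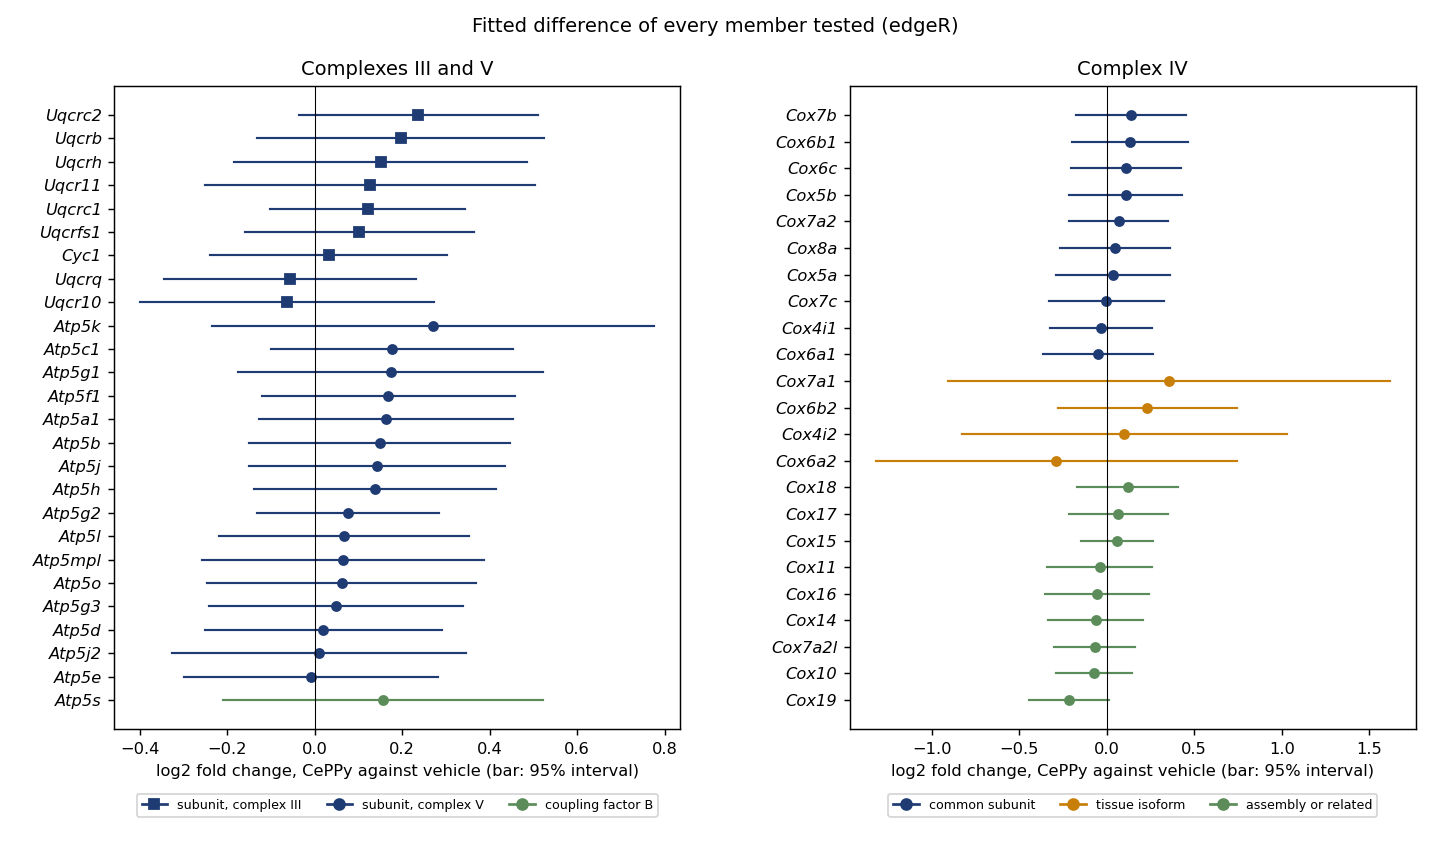
Fitted log2 fold change of each of the 49 members tested, (+)CePPy against vehicle (horizontal axis), with its 95% interval from edgeR; squares are complex III, circles complexes IV and V, and colours mark subunits, isoforms and assembly or related genes. Every interval includes 0, and the isoforms Cox7a1, Cox4i2 and Cox6a2 have the widest.

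Levels between genes are compared per kilobase of exon. In vehicle kidneys Atp5b had the highest level, 1131 ± 42.2 CPM per kb (SD, n = 3), followed by Atp5g3 at 742 ± 9.26 and Cox4i1 at 660 ± 15.7. Atp5a1, Cox6a1 and Cox8a followed at 535 ± 8.53, 523 ± 35.8 and 501 ± 13.3, and neighbours among these 3 lay within their spread or close to it. Complex III subunits lay lower than these, with Uqcr10 at 283 ± 20.2, Uqcrc1 at 214 ± 3.48, Uqcrc2 at 184 ± 3.10 and Cyc1 at 185 ± 6.76 CPM per kb. Other subunits of complexes IV and V also lay lower, among them Cox5b at 152 ± 7.34 and Cox7b at 143 ± 5.88. The low values of Uqcrq (67.6) and Atp5g1 (28.4) rested on long annotated exons: with the shortest principal transcript they were 305 and 234 CPM per kb. The alpha and beta genes of the F1 head thus had more RNA per length than the core proteins of complex III in the same libraries. Atp5c1, Atp5d and Atp5e lay near those core proteins, at 203, 231 and 196 CPM per kb. With the shortest principal transcript they were at 316, 352 and 196.

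**Figure D3:**
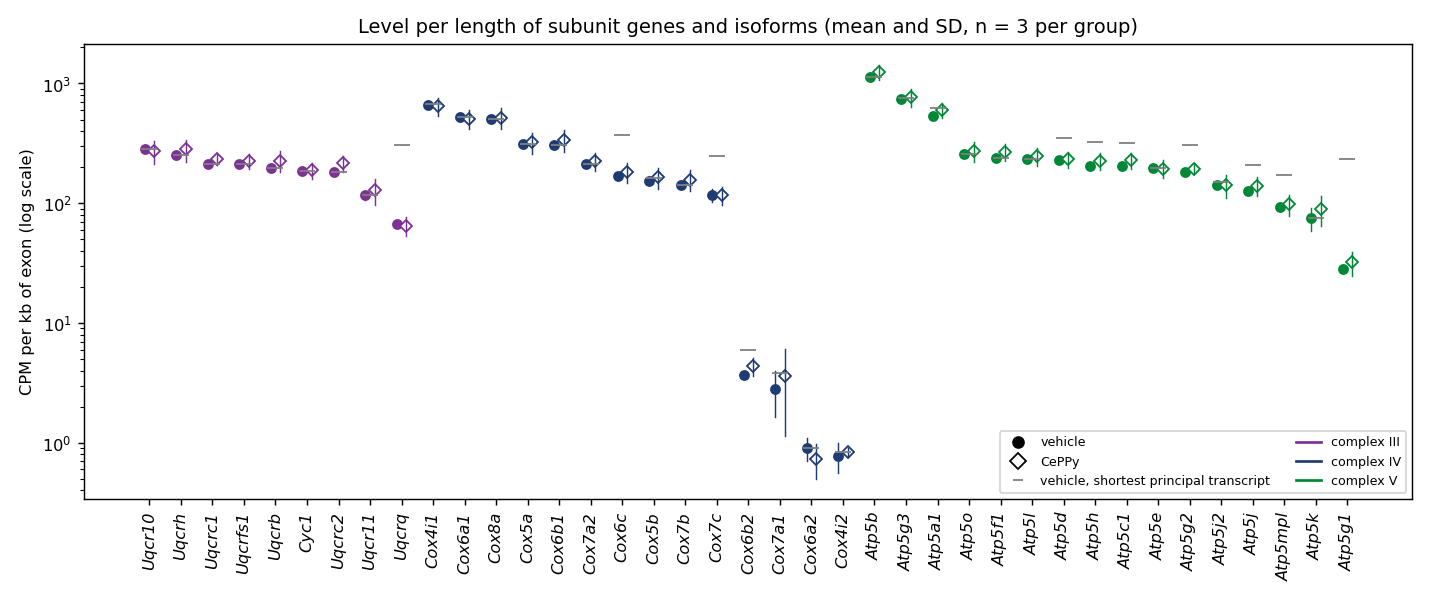
Level per length of the tested subunit and isoform genes, in CPM per kb of exon on a log axis, as mean and SD of 3 vehicle (circles) and 3 (+)CePPy libraries (open diamonds), coloured by complex; grey dashes give the vehicle mean with the shortest principal transcript as length. Atp5b stands highest at 1131 CPM per kb in vehicle, and the isoforms Cox4i2, Cox6a2, Cox7a1 and Cox6b2 lie under 10 CPM per kb.

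Summed over its nuclear subunits, complex III stood at 1814 ± 46.6 CPM (SD, n = 3) in vehicle and 1960 ± 304 in (+)CePPy kidneys, a ratio of 1.08. Complex IV stood at 2216 ± 96.4 and 2275 ± 428 CPM, a ratio of 1.03, and complex V at 6569 ± 159 and 7186 ± 1118 CPM, a ratio of 1.09. Each sum was highest in (+)CePPy 1 (2290, 2753 and 8407 CPM) and lowest in (+)CePPy 2 (1691, 1926 and 6213 CPM), with all vehicle libraries between. The differences of the means were smaller than the spread of the treated libraries.

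The subunits encoded in mitochondrial DNA did not pass the test either. How their RNA was captured is not described in the labels, so their levels are compared between libraries and not with nuclear genes. mt-Cytb, the cytochrome b of complex III, measured 14565, 14105 and 19203 CPM against 20442, 17343 and 18732 CPM, a difference of 0.24 (adjusted p = 0.486). mt-Co1, which holds the oxygen-reducing centre of complex IV, measured 39143, 33530 and 43370 CPM against 45550, 41173 and 42120 CPM, a difference of 0.15. mt-Atp6, the proton channel subunit of complex V, differed by 0.19. mt-Co2, mt-Co3 and mt-Atp8 differed by 0.11, 0.18 and 0.25, and 6 of 6 had their highest value in (+)CePPy 1.

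In these genes (+)CePPy 2 was not the lowest library, unlike in the nuclear subunits. The ratio of mitochondrially encoded to nuclear CPM was 8.93, 10.3 and 9.86 in (+)CePPy 1, 2 and 3 for complex III, beside 8.08, 7.94 and 10.3 in vehicle 1, 2 and 3. For complex IV it was 24.6 ± 2.31 (SD, n = 3) in vehicle and 27.0 ± 3.06 in (+)CePPy kidneys, and for complex V 1.68 ± 0.23 and 1.78 ± 0.14. The ratio overlapped between groups in all 3 complexes, and vehicle 3 stood apart from the other vehicle libraries for complexes III and V.

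Ratios of partner genes overlapped between groups in some pairs and not in others. The pairs were chosen after their values were seen, and the share without overlap over all gene pairs was not computed. With 3 against 3 libraries an exact permutation test cannot go below 0.1. The ratio of Uqcrc1 to Uqcrc2 counts was 1.02 ± 0.02 (SD, n = 3) in vehicle and 0.942 ± 0.053 in (+)CePPy kidneys, without overlap. Cox5a to Cox5b was 1.45 ± 0.024 and 1.38 ± 0.016, without overlap. The ratio of Cyc1 to Cycs, the gene of its electron acceptor cytochrome c, was 0.604 ± 0.018 and 0.646 ± 0.005, without overlap. The ratio of Cox7a2l to Cox7a2, 0.890 ± 0.013 and 0.815 ± 0.066, overlapped. So did that of Atp5g1 to Atp5g3, 0.259 ± 0.009 and 0.281 ± 0.016, and that of Atp5a1 to Atp5b given above.

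Cytochrome c carries electrons from complex III to complex IV. Cycs measured 467, 462 and 468 CPM against 520, 386 and 429 CPM, a difference of -0.06 (SE 0.12), highest in (+)CePPy 1 and lowest in (+)CePPy 2. Hccs, which attaches its heme, differed by 0.11 (SE 0.09), with all treated libraries above vehicle.

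Genes that assemble the complexes did not pass the test in any list. Of 7 complex III assembly genes 6 were tested, 2 with positive and 4 with negative differences and a median of -0.09: Bcs1l, which inserts the Rieske protein, differed by -0.21 (adjusted p = 0.322), Uqcc1 by 0.24 and Uqcc2 by -0.16. Of 21 further complex IV assembly genes 19 were tested, 8 positive and 11 negative, with a median of -0.02: Pet100 differed by 0.25, Surf1 by -0.11 and Lrpprc, which stabilises mitochondrial messenger RNA, by -0.10. Surf1 and Lrpprc, 2 of the 19, were lower in all 3 treated libraries than in any vehicle library, where 14% of all genes tested were. Coa5 was higher in all 3 treated libraries, where 12.3% of all genes were. Of 9 genes of complex V assembly and regulation 7 were tested, 6 positive and 1 negative, with a median of 0.07. Atpaf2, a chaperone of the F1 head, differed by -0.17, the inhibitor gene Atpif1 by 0.13 and Usmg5 by 0.14. Usmg5 is itself a membrane subunit of the ATP synthase, and Ndufa4, held in the complex IV list, is a subunit of complex IV. Both lie outside the rule on symbols, so they are not in the subunit counts and sums given here.

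Among genes that shape the inner membrane, 11 of 13 were tested, 6 positive and 5 negative. Phb2, a prohibitin of the inner membrane, measured 207, 210 and 211 CPM against 170, 181 and 169 CPM, a difference of -0.27 (SE 0.07, adjusted p = 0.136 in edgeR and 0.0164 in DESeq2). Its treated values were all lower than its vehicle values, including that of (+)CePPy 1. Apoo and Chchd6, of the cristae junction complex, differed by 0.26 and 0.16.

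Genes of mitochondrial mass and import did not pass in edgeR either. Of 14 genes of mitochondrial mass and protein import, 2 had positive and 12 negative differences, with a median of -0.11. For 7 of the 14 every treated library was lower than any vehicle library, beside 14% of all genes tested. Tomm20, a receptor of the outer membrane import pore, measured 229, 214 and 218 CPM against 179, 159 and 173 CPM, a difference of -0.37 (SE 0.08, adjusted p = 0.109 in edgeR and 0.0025 in DESeq2). Tomm40, the import channel, differed by -0.22 (adjusted p = 0.196) and Timm23, the inner membrane channel, by -0.36 (adjusted p = 0.215). In (+)CePPy 1, 5 of the 14 genes lay above the vehicle mean, among them Vdac1, Slc25a3 and Slc25a5, named after their values were seen because they were highest there, and the other 9, Tomm20, Tomm40 and Timm23 included, lay below it. The difference between this list and the subunits was not tested.

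Of 10 genes of mitochondrial transcription and translation, 6 had positive and 4 negative differences, with a median of 0.02; Tsfm, a mitochondrial elongation factor, differed by -0.21 (adjusted p = 0.211), and Polrmt and Polg by -0.12 and -0.12. Of 6 regulators 3 were positive and 3 negative. Ppargc1a, which encodes PGC-1 alpha, the coactivator of respiratory genes, measured 23.2, 27.7 and 30.3 CPM against 42.6, 32.4 and 44.3 CPM, a difference of 0.55 (SE 0.15, adjusted p = 0.131 in edgeR and 0.0214 in DESeq2). All 3 treated libraries lay above vehicle, and without (+)CePPy 2 the adjusted p in edgeR was 0.0332, where 5.17% of all genes passed. Esrra, the receptor ERR alpha that PGC-1 alpha acts with, measured 76.7, 70.7 and 69.2 CPM against 113, 72.0 and 80.5 CPM, a difference of 0.29 (adjusted p = 0.353), and Nrf1 differed by -0.10.

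The sign of the complexes' medians turned only when (+)CePPy 1 was left out, and barely so for complex V. Without (+)CePPy 1 the median log2 fold change was -0.02 for complex III, -0.10 for complex IV and -0.00029 for complex V. Without (+)CePPy 2 it was 0.19, 0.09 and 0.23. Without (+)CePPy 1, 4 members had an unadjusted p under 0.05, all lower: Uqcr10 (-0.24), Uqcrq (-0.20), Atp5j2 (-0.18) and Cox19 (-0.28), beside 8.75% of all genes in that direction. Without (+)CePPy 2, 5 members did so, all higher: Uqcrc2 (0.33), Uqcrb (0.31), Atp5c1 (0.27), Atp5f1 (0.27) and Atp5g1 (0.32), beside 11.8% of all genes. None of these had an adjusted p under 0.05. With 2 treated against 3 vehicle libraries, groups that do not overlap are more common for all genes. Without (+)CePPy 1, 1 of 49 members was higher without overlap, beside 17.7% of all genes, and 11 (22.4%) were lower, beside 18.8%. Without (+)CePPy 2, 15 of 49 (30.6%) were higher, beside 21.1% of all genes, and 0 were lower, beside 21.8%.

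Other features of the libraries differed along with the subunit levels. Total counts ranged from 29762157 to 37415213, and mitochondrially encoded genes took 11.8% to 15% of them. Over all genes tested, groups did not overlap for 12.3% in the higher and 14% in the lower direction, the shares to set beside each marker list. The 7 proximal tubule markers, all with positive differences and 5 without overlap, summed to 2886, 2916 and 3055 CPM in vehicle and 7968, 3447 and 5215 CPM in (+)CePPy 1, 2 and 3. The 4 thick ascending limb markers, all positive and without overlap, summed to 2648 to 2957 CPM in vehicle and 6061, 3415 and 4118 CPM. The 4 tubular injury markers, 3 of them lower in every treated library, summed to 3474 to 3732 CPM in vehicle and 1369, 3068 and 2061 CPM. Havcr1 held most of that sum, at 2917 of 3617 CPM in the vehicle mean. Vcam1 went the other way (0.38), with 49.6, 57.6 and 51.0 CPM against 48.0, 90.4 and 67.0 CPM. Lcn2 was higher in (+)CePPy 3 than in (+)CePPy 2 (363 and 345 CPM). (+)CePPy 1 thus had the highest proximal tubule and thick limb marker sums, the lowest injury marker sum and the highest subunit sums. Among treated libraries (+)CePPy 2 was at the other end in all of these sums. Against vehicle the order of the sums did not carry over. (+)CePPy 2 had a higher proximal tubule marker sum than any vehicle library, and the lowest subunit sums. Slc34a1 held much of that marker sum, at 1531 CPM. Of the 7 markers, 5 lay above their vehicle mean in (+)CePPy 2. Lrp2 and Slc22a6 lay below it, at 564 and 585 CPM against vehicle means of 614 and 622 CPM. No defining marker of these 3 lists was at 0.

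Of the other lists, the 4 collecting duct markers summed to 134 to 181 CPM in vehicle and 227 to 314 in (+)CePPy kidneys. The 3 neutrophil markers, all lower, summed to 29.0 to 43.1 CPM and 8.22 to 18.2 CPM. The 7 markers of pericytes and smooth muscle, 2 of them lower and 1 higher without overlap, summed to 438 to 616 CPM and 331 to 384 CPM. The distal convoluted tubule (3 genes, 236 to 294 against 261 to 350 CPM), macrophage (3 genes, 61.9 to 70.4 against 59.1 to 70.3 CPM) and endothelium (3 genes, 227 to 257 against 227 to 244 CPM) lists overlapped. Brown fat is a tissue rich in mitochondria, and its 5 markers summed to 0.327 to 2.31 CPM in vehicle and 0.422 to 5.20 CPM in (+)CePPy kidneys, with Ucp1 at 0 counts in 4 of 6 libraries. By library, the sums of these 5 markers were 0.422, 4.17 and 5.20 CPM in (+)CePPy 1, 2 and 3. The part of tubule content, injury and the other lists in the subunit levels was not tested, and in whole kidney RNA fewer cells of a type and less RNA per cell cannot be told apart.

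**Figure D4:**
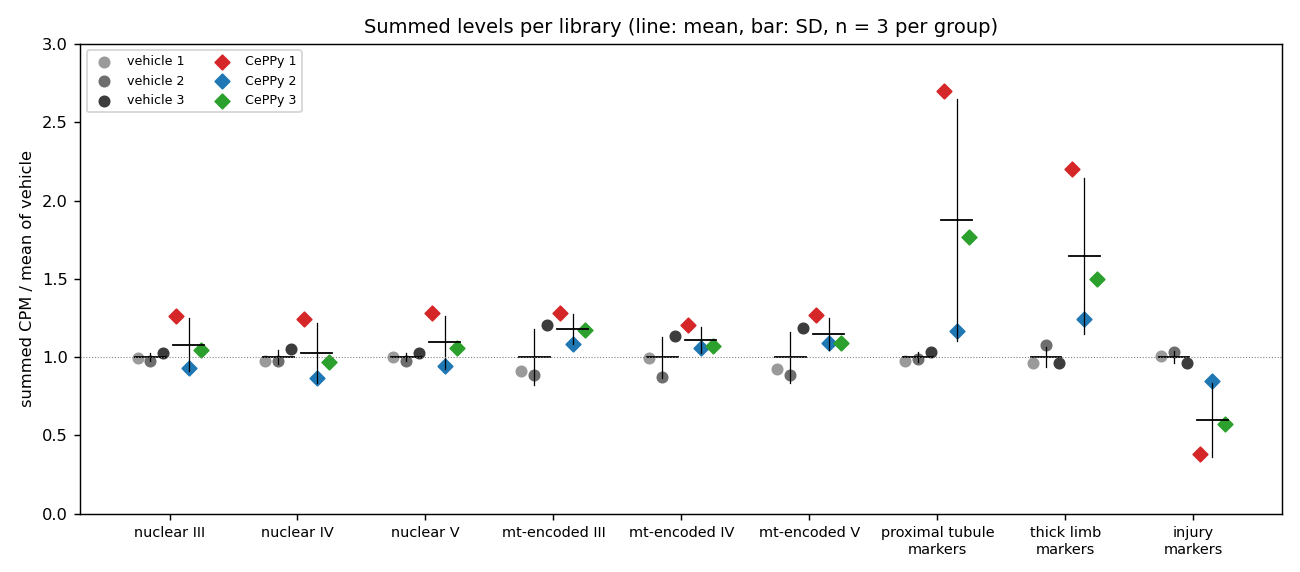
Summed CPM of nuclear and mitochondrially encoded subunits and of 3 marker lists in each library, divided by the vehicle mean (vertical axis), with the mean and SD of 3 libraries per group as lines; circles are vehicle and diamonds (+)CePPy. The 3 nuclear sums put (+)CePPy 1 above and (+)CePPy 2 below all vehicle libraries. The sums of the tubule markers put all 3 treated libraries above vehicle.

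Several members overlap a gene on the opposite strand, among them Cox4i1 with Emc8, Cox6c with Vps13b, Cox11 with Tom1l1, Atp5a1 with Haus1, Atp5f1 with Wdr77 and Atp5j with Gabpa. Whether strand was used in counting is not given, so their counts may hold reads of the partner. GENCODE M21, on GRCm38, holds all 53 members under the same symbol.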

How the data were processed

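The authors deposited raw read counts per gene for the 6 libraries in 1 table, without normalization. TopHat2, Cufflinks, DESeq and the build GRCm38 are named, with no role, per the submitters' processing notes. How reads were counted, with which annotation, strand setting and filters, is not given in the sources used. TRIzol extraction and a Yeasen dual-mode mRNA kit are stated per the labels' protocols. Groups and replicate numbers came from the sample titles.

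The table was filtered with filterByExpr and fitted whole, 3 vehicle against 3 (+)CePPy libraries, with treatment as the only term, in edgeR 4.0.16 (R 4.3.3): TMM scaling, the quasi-likelihood test, 4 residual degrees of freedom, a common biological coefficient of variation of 0.186, Benjamini-Hochberg adjustment over 15416 genes and a threshold of 0.05. Scaling factors lay between 0.95 and 1.03, and 1 count equalled 0.0266 to 0.0333 CPM. On simulated counts for 15272 genes in 3 against 3 libraries, the fit recovered 100 of 100 genes changed 3-fold and 20 of 100 changed 1.5-fold. The limit given for a count of 0 covers counting error only.

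Exon lengths came from GENCODE M21. Alternatives were DESeq2 1.42.0, limma-voom (limma 3.58.1), other scalings, no filter, a replicate block, each library left out, and counts or another length for paralog shares; their effect is given at the end. Named genes were, per complex, the 3 subunits with the lowest p in each direction, a fixed set of subunits, isoforms and assembly genes, the mitochondrially encoded subunits, Cycs, and up to 3 genes with the lowest p of each pathway list; further members are named to account for all of them. The members and lists were chosen with earlier results of these data known.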

Additional observations from a re-analysis of the deposited data

How the results depend on the processing

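No member was called under any of the 12 alternatives. The number of genes called overall was 1 in the test as described, 993 with DESeq2, 63 without the filter on low counts, and 0 to 811 when 1 library was left out, with 811 without (+)CePPy 2. Replicate numbers did not pair the libraries (same-number correlations of -0.15, 0.10 and -0.02 among 9 pairs between -0.15 and 0.18), and a fit with the replicate number as a block called 0 genes and 0 members. Leaving out 1 library gave 0 to 5 members with an unadjusted p under 0.05 and 1 to 15 whose groups did not overlap (12 without (+)CePPy 1 and 15 without (+)CePPy 2, where 17.7% and 21.1% of all genes did so in the higher and 18.8% and 21.8% in the lower direction). The medians ran from -0.02 to 0.19 for complex III, -0.10 to 0.09 for complex IV and -0.00029 to 0.23 for complex V.

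The sign of the log2 fold change turned in some of those fits, with ranges of -0.20 to 0.0503 for Uqcrq, -0.24 to 0.0552 for Uqcr10, -0.0313 to 0.24 for Cox7b, -0.0412 to 0.25 for Cox6b1, -0.20 to 0.0603 for Cox6a1, -0.17 to 0.0681 for Cox4i1, -0.15 to 0.0910 for Atp5e, -0.0064 to 0.19 for Uqcrfs1, -0.0882 to 0.13 for Cyc1, -0.11 to 0.26 for Cox4i2, -0.14 to 0.15 for Cox5a and -0.32 to 0.74 for Cox7a1. It also turned for Cox7a2 (-0.0782 to 0.16), Cox7a2l (-0.15 to 0.0229), Cox8a (-0.12 to 0.16), Atp5g1 (-0.00029 to 0.32), Atp5g3 (-0.0801 to 0.16), Cox15 (-0.0243 to 0.12), Cox17 (-0.0529 to 0.13), Cycs (-0.19 to 0.0266), Usmg5 (-0.0587 to 0.28) and Nrf1 (-0.17 to 0.0250). No other alternative turned a sign among the named genes.

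The Atp5g1 share of c subunit RNA differed by 0.22 percentage points per kb of exon, 1.09 by counts and 1.10 per kb of the shortest principal transcript, an alternative chosen after seeing the data; Atp5g1 has the longest annotated exons of the 3 genes. With 3 libraries per group, most 1.5-fold differences were missed in simulation, and the subunits' estimates were smaller than that. The simulation gave every gene the common coefficient of variation, so it does not describe the subunits one by one. Their own 95% intervals of the fold together ran from 0.758 (Uqcr10) to 1.71 (Atp5k), and Atp5k alone reached 1.5-fold.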
